A study of Homo sapiens with 6 samples.

Results

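The mitochondrial respiratory chain subunits encoded by nuclear genes were described in EndoC-βH1 cells given siRNA against MNX1. The set held 82 of the 16792 genes in the deposited table. They were taken by gene symbol alone, as NDUFA, NDUFB, NDUFC, NDUFS and NDUFV with a number, SDHA to SDHD, the UQCR genes, CYC1, the nuclear COX4 to COX8 genes, and the ATP5 genes. Of these, 79 were subunit genes and 3 were copies of one (UQCRHL, UQCRFS1P1 and COX6A1P2), which are given apart. The 79 comprised 36 genes of complex I, 4 of complex II, 9 of complex III, 12 of complex IV and 18 of complex V. Here NDUFA4, once assigned to complex I and now to complex IV, and COX7A2L, a factor of respiratory supercomplexes, were counted with complex IV. ATP5IF1, an inhibitor of complex V, was counted among its 18 genes and so among the 79.

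RNA was sequenced from 6 libraries of EndoC-βH1 (EndoCBH1 in the labels), a human pancreatic beta cell line. The control group held 3 libraries of the genotype WT with a non-targeting siRNA (siNT). The other group held 3 libraries whose genotype was given as MNX1 knock down, with the siRNA siMNX1. All 6 came from this 1 line, and the labels do not say whether replicates were separate cultures, so each p-value reflects the spread of these libraries alone, which may be technical. The series title asks of MNX1, a homeobox transcription factor, whether it keeps somatostatin off in beta cells through PERCC1. Nothing in the labels concerns respiration.

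The respiratory chain passes electrons from NADH (complex I) and succinate (complex II) through ubiquinone to complex III, then through cytochrome c to oxygen at complex IV. Complexes I, III and IV pump protons out of the matrix, and complex V, the ATP synthase, makes ATP as they return. In beta cells the ATP made after glucose uptake closes ATP-sensitive potassium channels, which leads to insulin release. Complexes I, III, IV and V combine nuclear subunits with a few encoded by mitochondrial DNA, while all subunits of complex II are nuclear.

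MNX1 had normalized counts of 2039, 2033 and 1988 in the siNT libraries and of 1885, 1708 and 1751 in the siMNX1 libraries. The groups did not overlap, but the log2 fold change was small (-0.18, 95% interval -0.31 to -0.06) and did not pass the test (limma, adjusted p = 0.116). SST and PERCC1 rose, with log2 fold changes of 1.96 and 4.24. All 8 beta cell markers listed were measured, with summed levels of 129895 to 138392 in siNT and 140520 to 152816 in siMNX1. Most of this sum was INS (means 110539 in siNT and 125386 in siMNX1), which was not called (limma, adjusted p = 0.0656). Of the 8 markers, 4 had a log2 fold change below 0 and 4 above. Among them MAFA and PCSK1 rose and IAPP and G6PC2 fell (limma), though the calls of IAPP, MAFA and PCSK1 ended without 1 or more of siNT replicates 1 to 3 and siMNX1 replicate 1 (adjusted p = 0.0549 to 0.108). Without the variance trend none of these 4 was called (adjusted p = 0.0949 for G6PC2, 0.0529 for IAPP, 0.0592 for MAFA and 0.129 for PCSK1). The delta cell markers SST and HHEX rose, and the summed delta list went from 384.6 to 399.5 in siNT to 1430 to 1519 in siMNX1. The alpha cell markers measured, IRX2 and TTR, summed to 7949 to 8655 in siNT and 7646 to 8606 in siMNX1. Of 17 acinar, ductal, mesenchymal, endothelial and immune markers, 5 were measured, and the other 12 are not analysed here. The acinar markers summed to 553.8 to 640.1 in siNT and 585.3 to 606.2 in siMNX1, and the mesenchymal, endothelial and immune markers to 4440 to 4734 and 3933 to 4302. The acinar ranges overlapped. The last sum was nearly all CD74 (means 4580 in siNT and 4055 in siMNX1). COL1A1, the only other gene measured in that list, had means of 28.06 and 32.04 and a log2 fold change of 0.32. The 1 ductal marker measured was higher in siMNX1, at 1123 to 1291 in siNT and 1318 to 1415 in siMNX1. The part of these differences in the results below was not tested. On the second principal component (20.1% of the variance), siMNX1 replicates 1 and 2 lay at opposite ends, at -29.4 and 31.7, with the other libraries between -2.40 and 2.66.

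No respiratory chain gene passed the test. With limma and Benjamini-Hochberg adjustment over all genes, 0 of 82 had an adjusted p under 0.05, where 3.32% of all genes did (1.33% lower and 1.99% higher in siMNX1). At an unadjusted p under 0.05, 6 of the 82 (7.32%) were lower and 0 were higher, where 8.56% of all genes were lower and 9.81% higher, 18.4% in all. The 6 became 3 without siMNX1 replicate 3 and 10 without siMNX1 replicate 1. In those fits 17.5% and 16.3% of all genes had such a p in either direction. The lower side alone is thus close to the background, and the higher side is under it.

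The members' fold changes were small and lay mostly on one side of 0. Of the 79 subunit genes, 58 (73.4%) had a log2 fold change below 0, against 50.1% of all genes. Their median was -0.06, with values from -0.31 to 0.11, beside a median of -0.0004 for all genes. Without siNT replicate 2 or siMNX1 replicate 2 this median was -0.0361 or -0.0350, and without siMNX1 replicate 1 it was -0.0782. In 14 of the 79, all 3 siMNX1 libraries lay below all 3 siNT libraries, and in 0 did they all lie above. Over all genes 24.0% did not overlap, 12.1% lower and 12.0% higher. These 79 genes share libraries and normalization and are not independent of each other.

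The subunit genes were abundant and had small standard errors, which limits how large a change these libraries could have missed. That limit rests on the spread of these libraries, which may be technical, and not on cultures known to be separate. It applies to the small fall of MNX1 RNA seen here (log2 fold change -0.18). Their median level was 1484 normalized counts, against 400.7 for all genes, and the median standard error of the log2 fold change was 0.0633, against 0.1066. For 67 of the 79, the 95% interval of the fold change lay within 1.2-fold in either direction, which held for 27.4% of all genes. Within 1.5-fold lay all 79 (67.1% of all genes), and within 1.1-fold only 2 of the 79 (1.92% of all genes). In bulk RNA, fewer cells with a transcript and less of it per cell cannot be told apart.

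**Figure D1:**
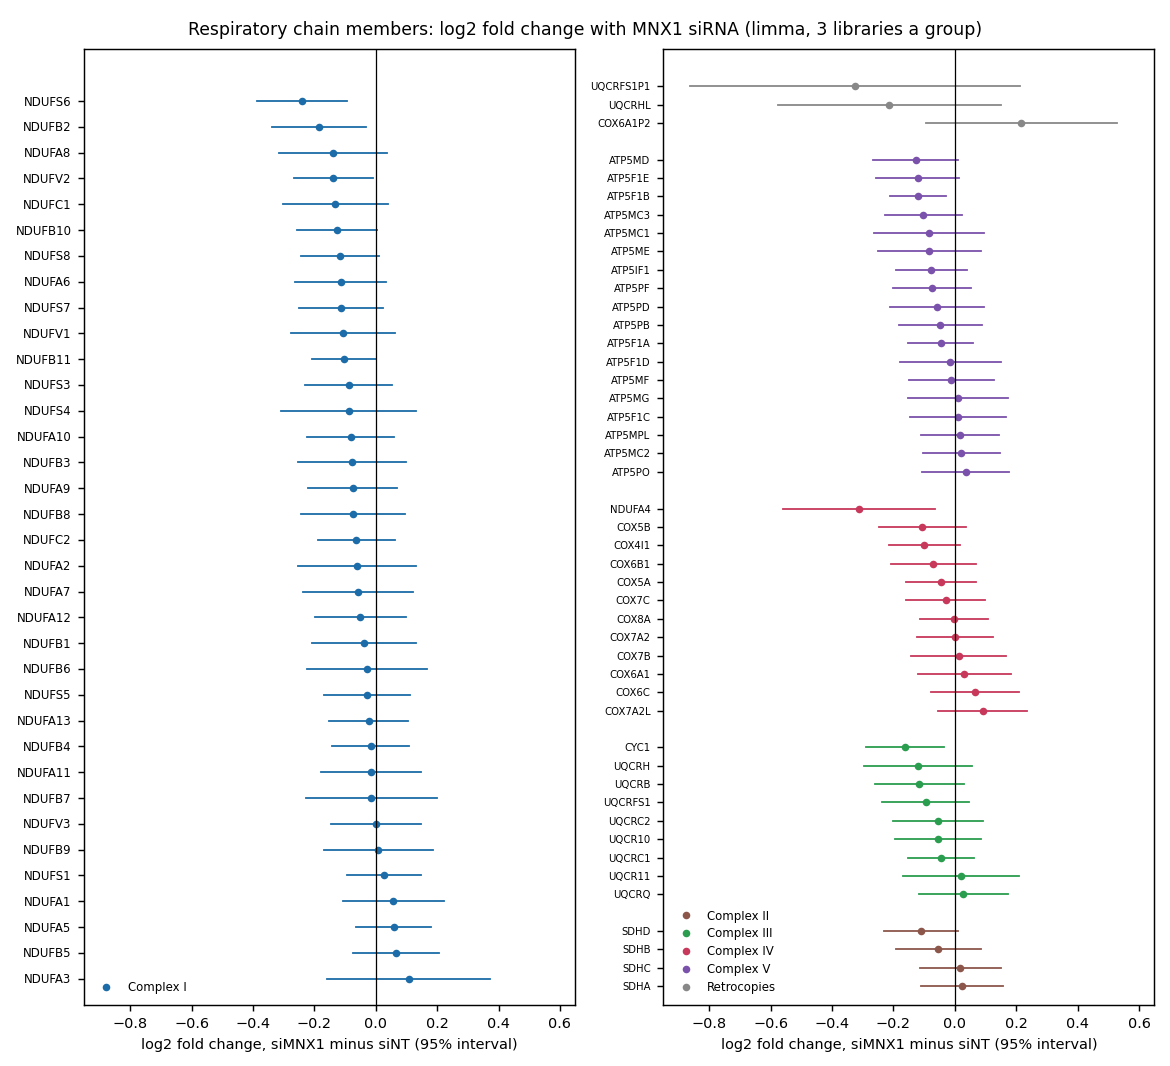
Log2 fold change of 81 of the 82 genes (horizontal axis, siMNX1 minus siNT, points) with its 95% interval (lines), grouped by complex, with 3 libraries in each group. Most points lie slightly to the left of 0, between -0.31 and 0.11 for the subunit genes, and the 3 copies have the widest intervals.

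**Figure D2:**
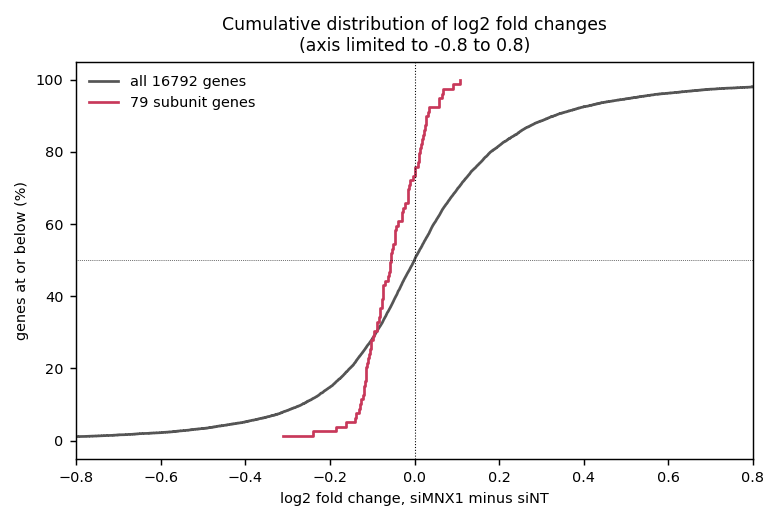
Share of genes (vertical axis, percent) at or below each log2 fold change (horizontal axis, siMNX1 minus siNT, shown from -0.8 to 0.8) for the 79 subunit genes and for all 16792 genes. The subunit genes rise steeply within a narrow range and cross 0 with 73.4% of genes below it, where the curve of all genes has 50.1%.

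Complex I is the largest complex and the main entry point for electrons from NADH. Of its 36 genes, 29 had a log2 fold change below 0, with a median of -0.07. Without overlap, 9 of the 36 were lower in siMNX1, against 12.1% of all genes. The gene with the smallest p of the whole set was NDUFS6 (chromosome 5, 1801400 to 1816605, plus strand, GENCODE 29 on GRCh38), which encodes a zinc-binding accessory subunit near the electron entry site. Its normalized counts were 830, 861 and 809 in siNT and 680, 708 and 729 in siMNX1. Every siMNX1 library thus lay below every siNT library. The means were 833 ± 26.0 and 706 ± 24.4 (SD, n = 3 each), the log2 fold change was -0.24 (SE 0.07, 95% interval -0.39 to -0.09), and limma's adjusted p was 0.084. Over the alternatives tried, this adjusted p ran from 0.0715 to 0.240, so NDUFS6 was not called under any of them.

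Another 2 complex I genes had an unadjusted p under 0.05. NDUFB2, an accessory subunit of the membrane arm (chromosome 7, 140690777 to 140722790, plus strand), had 1114, 1218 and 1090 normalized counts in siNT and 1056, 960 and 992 in siMNX1. Its groups did not overlap, and the log2 fold change was -0.18 (95% interval -0.34 to -0.03, limma adjusted p = 0.185, and 0.162 to 0.431 over the alternatives). Of its exon bases, 27.9% overlap a gene on the opposite strand, and whether counting used strand is not given in the sources used here. In all, exons of 33 of the 82 genes overlap exons of another gene in the table, 11 of them on the same strand and 27 on the opposite strand, so their values are less certain. NDUFV2 (chromosome 18, 9102630 to 9134345, plus strand) encodes a core iron-sulphur subunit of the NADH-oxidising tip. Its values were 1701, 1748 and 1587 normalized counts in siNT and 1516, 1561 and 1497 in siMNX1, again without overlap. The log2 fold change was -0.14 (95% interval -0.27 to -0.01, limma adjusted p = 0.236, and 0.202 to 0.490 over the alternatives).

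The core subunits NDUFS3, NDUFS7 and NDUFS8, in the part of complex I that leads electrons to ubiquinone, had log2 fold changes of -0.09, -0.11 and -0.12. NDUFS7 and NDUFS8 did not overlap between groups. NDUFS8, which holds a pair of iron-sulphur clusters, had 1290, 1240 and 1217 normalized counts in siNT and 1180, 1149 and 1125 in siMNX1. All 3 siMNX1 values lay below the lowest siNT value, with a log2 fold change of -0.12 (95% interval -0.24 to 0.01, limma adjusted p = 0.315). Of the 3 core subunits at the site of NADH oxidation, NDUFV1, which binds the flavin, had a log2 fold change of -0.11 (95% interval -0.27 to 0.06) and NDUFS1 one of 0.03 (95% interval -0.09 to 0.15). The NDUFV1 value was -0.05 without siMNX1 replicate 1 and -0.18 without siMNX1 replicate 3. NDUFS1 thus lay on the other side of 0 from NDUFV1 and NDUFV2, with an interval that spans 0 and overlaps both of theirs.

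The accessory subunits surround the core and stabilise it. Of the 12 NDUFA genes in complex I, 9 were below 0 (median -0.05), and of the 11 NDUFB genes 9 were below 0 (median -0.04). Of the 6 accessory genes named NDUFC, NDUFS or NDUFV, 5 were below 0, with a median of -0.08. The highest log2 fold change of the complex was that of NDUFA3 (0.11, 95% interval -0.16 to 0.37), whose normalized counts were 506, 620 and 684 in siNT and 726, 592 and 624 in siMNX1. The groups overlapped, with the lowest value in siNT and the highest in siMNX1, and without siNT replicate 1 the log2 fold change was -0.01. Per kilobase of transcript, the most abundant complex I genes were NDUFB11 (4336 normalized counts per kb), NDUFS8 (3400) and NDUFC2 (3353). These ranks rest on the transcript length taken for each gene, only 353 bases for NDUFS8, which may not match the transcripts expressed here. NDUFB11, a membrane-arm subunit, had a log2 fold change of -0.10 (95% interval -0.21 to 0.002) without overlap, and NDUFC2 one of -0.06 (95% interval -0.19 to 0.06).

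Complex II, succinate dehydrogenase, also works in the citrate cycle. Its 4 genes fell on both sides of 0, with a median log2 fold change of -0.02, which moved to -0.05 without siNT replicate 3. SDHA, the flavoprotein that oxidises succinate, had 1401, 1497 and 1517 normalized counts in siNT and 1516, 1432 and 1540 in siMNX1. These groups overlapped, and the log2 fold change was 0.02 (95% interval -0.11 to 0.16). SDHB, the iron-sulphur subunit, had a log2 fold change of -0.05 (95% interval -0.19 to 0.09). The membrane anchors SDHC and SDHD were the most abundant of the complex per length, at 4012 and 1847 normalized counts per kb, followed by SDHB at 958. For SDHC the transcript length taken was only 460 bases, so its rank is uncertain. SDHC had a log2 fold change of 0.02 (95% interval -0.11 to 0.15). SDHD, at 1654, 1683 and 1616 normalized counts in siNT and 1587, 1490 and 1512 in siMNX1, was lower in every siMNX1 library, with a log2 fold change of -0.11 (95% interval -0.23 to 0.01, limma adjusted p = 0.316).

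Complex III passes electrons from ubiquinol to cytochrome c. Its 9 genes had a median log2 fold change of -0.06, with 7 below 0, and the median was -0.09 without siNT replicate 1. The lowest was CYC1 (chromosome 8, 144095027 to 144097525, plus strand), cytochrome c1, the haem subunit that hands electrons to cytochrome c. It stood at 1743, 1739 and 1800 normalized counts in siNT and 1655, 1573 and 1495 in siMNX1. No siMNX1 library reached the siNT range, and the means were 1761 ± 34.5 and 1574 ± 80.1 (SD, n = 3 each). The log2 fold change was -0.16 (95% interval -0.29 to -0.03, limma adjusted p = 0.167, and 0.145 to 0.378 over the alternatives).

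The other electron carrier of complex III encoded in the nucleus, the Rieske iron-sulphur protein UQCRFS1, had a log2 fold change of -0.10 (95% interval -0.24 to 0.05). Its normalized counts were 1696, 1698 and 1628 in siNT and 1660, 1449 and 1597 in siMNX1, and the groups overlapped through siMNX1 replicate 1. The core protein UQCRC1 had a log2 fold change of -0.05 (95% interval -0.15 to 0.06). Of the small subunits, UQCRB, UQCRQ and UQCRH were the most abundant of the complex per length, at 3063, 2736 and 2445 normalized counts per kb. UQCRB had a log2 fold change of -0.12 (95% interval -0.26 to 0.03) and UQCRQ the highest of the complex, 0.03 (95% interval -0.12 to 0.17). UQCRH, the hinge protein that binds cytochrome c1, had one of -0.12 (95% interval -0.30 to 0.06).

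Some UQCRH reads can hardly be assigned with certainty, because UQCRHL is a near-identical copy. The coding sequences of both, without the stop codon and read from the GENCODE 29 transcripts, are shown because all 273 bases align with 4 differences (98.5% identical), which are in capitals.
UQCRH: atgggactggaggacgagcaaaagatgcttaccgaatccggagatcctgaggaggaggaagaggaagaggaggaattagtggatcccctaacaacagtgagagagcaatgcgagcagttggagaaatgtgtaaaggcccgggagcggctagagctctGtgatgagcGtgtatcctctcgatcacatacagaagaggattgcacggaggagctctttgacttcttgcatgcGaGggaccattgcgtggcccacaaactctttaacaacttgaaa
UQCRHL: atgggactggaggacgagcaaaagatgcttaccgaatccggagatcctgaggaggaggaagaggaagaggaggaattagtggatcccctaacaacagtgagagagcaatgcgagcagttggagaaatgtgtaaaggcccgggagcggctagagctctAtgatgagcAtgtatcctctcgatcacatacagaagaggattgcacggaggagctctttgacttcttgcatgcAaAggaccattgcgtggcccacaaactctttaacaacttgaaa
UQCRHL was listed at 7.0% to 10.9% of the UQCRH level within the same library. Its log2 fold change was -0.21, with a 95% interval from -0.57 to 0.15, and it was -0.06 without siNT replicate 1. UQCRFS1P1 stood at 3.23% to 6.32% of UQCRFS1, with a log2 fold change of -0.33 (95% interval -0.86 to 0.21, and -0.52 to -0.12 with 1 library left out, the extremes without siMNX1 replicates 2 and 3). COX6A1P2 stood at 2.24% to 2.95% of COX6A1 and was the only one of the 82 with every siMNX1 library above every siNT library (91, 99 and 92 against 114, 115 and 99.5 normalized counts, log2 fold change 0.22, 95% interval -0.09 to 0.53). Such low values of copies can hold reads of their parent genes. In GENCODE 29, 49 of the 79 subunit genes have pseudogenes named after them, 188 in all, COX6A1P2 and UQCRFS1P1 included, with 17 for COX6C.

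Complex IV, cytochrome c oxidase, reduces oxygen to water, and its catalytic core is encoded by mitochondrial DNA. Its 12 genes counted here had a median log2 fold change of -0.02, with 7 below 0 and 5 above, and the median was 0.0024 without siNT replicate 2. Of the 12, 0 were lower without overlap, where 12.1% of all genes were. NDUFA4 (chromosome 7, 10931951 to 10940256, minus strand) had the lowest log2 fold change of all 79 subunit genes, -0.31 (SE 0.11, 95% interval -0.56 to -0.06, limma adjusted p = 0.170, and 0.150 to 0.424 over the alternatives). Its normalized counts were 441, 392 and 495 in siNT and 394, 348 and 326 in siMNX1. The groups overlapped at a single point, since siMNX1 replicate 1 lay just above siNT replicate 2. Per length it was also low for the complex, at 188 normalized counts per kb. The transcript length taken for NDUFA4 was 2130 bases, the longest of the complex, so this level is uncertain.

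The most abundant complex IV genes per length were COX6A1 (7278 normalized counts per kb), COX4I1 (6116) and COX8A (5565). COX4I1, a regulatory subunit that binds ATP, had 4978, 5150 and 4934 normalized counts in siNT and 4964, 4659 and 4450 in siMNX1. Replicate 1 of siMNX1 lay inside the siNT range and the other two below it, with a log2 fold change of -0.10 (95% interval -0.21 to 0.02, limma adjusted p = 0.347). COX5A, which sits beside it on the matrix side, had a log2 fold change of -0.05 (95% interval -0.16 to 0.07), and COX6B1, on the outer side, one of -0.07 (95% interval -0.21 to 0.07). COX6A1 (0.03, 95% interval -0.12 to 0.18), COX7B (0.01, 95% interval -0.14 to 0.17), COX7A2 (0.0008, 95% interval -0.12 to 0.12) and COX8A (-0.003, 95% interval -0.11 to 0.11) had log2 fold changes near 0 whose side changed when single libraries were left out. COX7A2L had the highest of the group, 0.09 (95% interval -0.06 to 0.24).

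COX7A2 and COX7A2L belong to one family, so their relative level was taken within each library, per length, which does not depend on scaling between libraries. COX7A2 made up 70.2%, 69.8% and 71.5% of their sum in siNT and 69.5%, 69.0% and 69.1% in siMNX1. The siMNX1 shares all lay below the siNT shares, by 1.3 percentage points on average (exact two-sided permutation test, p = 0.1, adjusted over 5 shares 0.167), and by 0.807 points without siNT replicate 3. With 3 libraries a group no smaller p can be reached, so no share could pass a threshold of 0.05. The share of COX7A2L is the remainder of that of COX7A2 and was counted too, so the 5 shares are not 5 separate tests. COX4I1 and COX6A1 were the only members of their isoform families analysed here, so no share was computed for them.

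**Figure D3:**
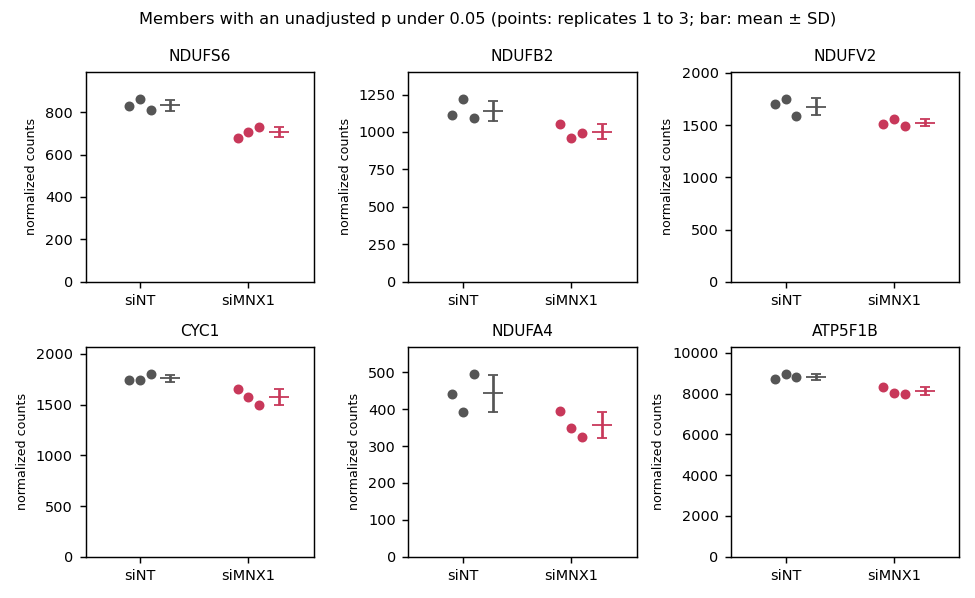
Normalized counts (vertical axes, from 0) of the 6 genes with an unadjusted p under 0.05, in siNT and siMNX1, as points for replicates 1 to 3 with mean and SD beside them. In NDUFS6, NDUFB2, NDUFV2, CYC1 and ATP5F1B the groups do not overlap, and in NDUFA4 siMNX1 replicate 1 (394) lies above siNT replicate 2 (392).

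Complex V, the ATP synthase, has a catalytic F1 head, a rotating ring of subunit c, and a peripheral stalk that holds the head still. Of its 18 genes, 13 had a log2 fold change below 0, with a median of -0.05, and 3 (ATP5F1B, ATP5MD and ATP5PF) were lower without overlap (12.1% of all genes). The median was -0.02 without siMNX1 replicate 2, -0.03 without siNT replicate 2 and -0.09 without siMNX1 replicate 1. ATP5F1B (chromosome 12, 56638175 to 56646068, minus strand) encodes the catalytic beta subunit. Its normalized counts were 8695, 8948 and 8798 in siNT and 8334, 8053 and 7957 in siMNX1. All siMNX1 libraries lay below the siNT range, and with means of 8814 ± 127 and 8115 ± 196 (SD, n = 3 each) the spread within groups was small. The log2 fold change was -0.12 (SE 0.04, 95% interval -0.21 to -0.03, limma adjusted p = 0.156, and 0.135 to 0.357 over the alternatives).

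ATP5F1A, the alpha subunit that alternates with beta in the head, had 7693, 7943 and 7729 normalized counts in siNT and 7717, 7132 and 7802 in siMNX1. Only siMNX1 replicate 2 lay below the siNT range, and the log2 fold change was -0.05 (95% interval -0.15 to 0.06). ATP5F1E, a small subunit of the central stalk, was among the most abundant genes of the complex per length (5946 normalized counts per kb), with ATP5MF (6404) and ATP5F1B (4603). ATP5F1E stood at 12761, 11419 and 10765 normalized counts in siNT and 10717, 10498 and 10838 in siMNX1. The siNT group was the wider, since its replicate 1 lay far above the rest, and the groups overlapped (log2 fold change -0.12, 95% interval -0.26 to 0.01). Without siNT replicate 1 that value was -0.05. ATP5MF, a small membrane subunit, had a log2 fold change of -0.01 (95% interval -0.15 to 0.13).

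In the rest of the complex, ATP5MD, a small subunit linked to ATP synthase dimers, had the lowest log2 fold change (-0.13, 95% interval -0.27 to 0.01, limma adjusted p = 0.304). Its normalized counts were 1015, 1065 and 984 in siNT and 955, 921 and 927 in siMNX1. The peripheral stalk gene ATP5PO had the highest (0.03, 95% interval -0.11 to 0.18), and of the 4 stalk genes 3 were below 0. ATP5IF1, the inhibitor that keeps the enzyme from running backwards, had one of -0.08 (95% interval -0.19 to 0.04).

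Subunit c of the ring is made from 3 genes whose mature proteins are the same, while their import sequences differ. A stretch of 90 coding bases from the GENCODE 29 transcripts, which ends just before the last coding codon, is shown. These genes differ there only at the 25 positions in capitals, and reads from such stretches can be told apart by these bases alone.
ATP5MC1: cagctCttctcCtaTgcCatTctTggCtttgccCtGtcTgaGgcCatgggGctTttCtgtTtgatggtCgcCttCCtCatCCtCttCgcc
ATP5MC2: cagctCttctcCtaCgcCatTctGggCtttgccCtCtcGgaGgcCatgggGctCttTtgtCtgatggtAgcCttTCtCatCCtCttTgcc
ATP5MC3: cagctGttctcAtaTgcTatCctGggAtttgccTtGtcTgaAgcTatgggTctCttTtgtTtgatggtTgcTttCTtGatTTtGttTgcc
Over 225 coding bases with that same end, ATP5MC1 and ATP5MC2 differed at 26 positions, ATP5MC1 and ATP5MC3 at 44, and ATP5MC2 and ATP5MC3 at 43. The log2 fold changes were -0.08 for ATP5MC1 (95% interval -0.26 to 0.09), 0.02 for ATP5MC2 (95% interval -0.10 to 0.15) and -0.10 for ATP5MC3 (95% interval -0.23 to 0.02). Within each library, ATP5MC2 held 40.6%, 40.3% and 40.0% of the 3 genes' level per length in siNT and 41.9%, 41.5% and 43.5% in siMNX1. Its share was higher in every siMNX1 library, by 1.98 percentage points (exact two-sided permutation test, p = 0.1, adjusted over 5 shares 0.167). ATP5MC3 had 39.5%, 37.7% and 39.3% in siNT and 37.8%, 37.4% and 36.9% in siMNX1, a difference of -1.45 points (exact p = 0.2, adjusted 0.25). ATP5MC1 differed by -0.53 points (exact p = 0.6), and by 0.06 points without siNT replicate 2.

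**Figure D4:**
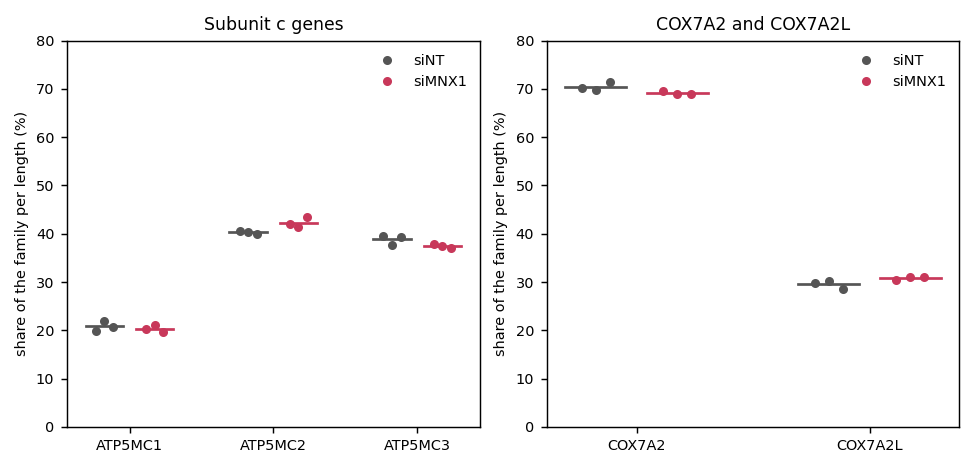
Share (vertical axes, percent of the family's level per length within a library) of each subunit c gene (left) and of COX7A2 and COX7A2L (right), with points for the 3 libraries of each group and lines for the means. ATP5MC2 lies higher in every siMNX1 library (41.5% to 43.5%) than in every siNT library (40.0% to 40.6%).

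The libraries of one group differed from each other across the chain about as much as the groups did. As a median over the 79 subunit genes, siNT replicates 1 to 3 deviated from the siNT mean by -0.02, 0.05 and -0.02 on the log2 scale, and siMNX1 replicates 1 to 3 by 0.001, -0.09 and -0.07. Replicate 1 of siMNX1 thus lay between the siNT libraries, and replicates 2 and 3 lay below all of them. Over all genes the same medians lay between -0.0007 and 0.0026. Within siNT, replicate 2 held the highest value in 49 of the 79 genes (62.0%), against 32.7% of all genes. Within siMNX1, replicate 1 held the highest in 53 (67.1%, against 32.1% of all genes) and replicate 2 the lowest in 44 (55.7%, against 34.0%). The subunit genes of a library thus tended to deviate to the same side.

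**Figure D5:**
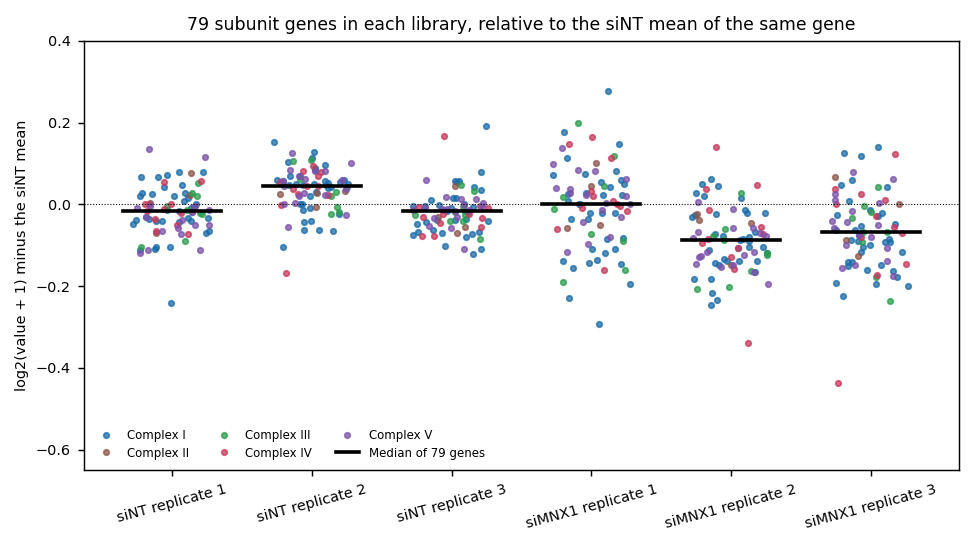
Each of the 79 subunit genes in each library (points, coloured by complex) as log2(value + 1) minus the siNT mean of that gene (vertical axis), with black bars for the medians. The medians of siMNX1 replicates 2 and 3 (-0.09 and -0.07) lie below those of the other 4 libraries, which run from -0.02 to 0.05.

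The summed level also put siNT replicate 2 highest and siMNX1 replicate 2 lowest. The 79 genes held 148602, 152851 and 147198 normalized counts in siNT and 148309, 140211 and 143150 in siMNX1, which is 0.808% ± 0.0135 and 0.775% ± 0.0275 of the library (SD, n = 3 each). The groups overlapped, since siMNX1 replicate 1 exceeded siNT replicate 3. Complex V made up the largest part, with 53716, 54718 and 52670 normalized counts in siNT and 52906, 49553 and 51095 in siMNX1, and it overlapped in the same way. Sums for complex I were 46580, 47949 and 46555 in siNT and 46231, 44312 and 45056 in siMNX1. Here all 3 siMNX1 libraries lay below the siNT range, the highest of them only slightly. Complex III was separated too, with 16261, 16788 and 16223 in siNT and 15993, 15320 and 15697 in siMNX1. The sums of complexes II and IV overlapped between groups.

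The 13 subunits encoded by mitochondrial DNA, which join the nuclear ones in complexes I, III, IV and V, held 5.91% ± 0.681 of the siNT libraries and 5.67% ± 0.564 of the siMNX1 libraries (SD, n = 3 each). Their log2 fold changes had a median of -0.03, with 11 of 13 below 0, 0 past the limma test and 1 (lower) at an unadjusted p under 0.05. Replicate by replicate they followed the nuclear genes only in part. As a median, siMNX1 replicate 3 lay 0.11 above the siNT mean for the mitochondrial genes and siMNX1 replicate 1 lay below it, at -0.16, while the nuclear genes had -0.07 and 0.001 there. In siNT, replicate 2 was the highest library for both. The mitochondrial and nuclear medians both lay below the siNT mean in siMNX1 replicate 2 (-0.09 and -0.09) and siNT replicate 1 (-0.19 and -0.02). For siNT replicate 3 they were 0.01 and -0.02.

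Genes that build or feed the chain were read from lists by role. Of 20 complex I assembly factors, 0 passed the limma test, and 1 was lower and 0 higher at an unadjusted p under 0.05 (5.0%, median log2 fold change -0.02). Of 42 assembly factors of complexes II to V, 0 passed, with 5 lower and 7 higher unadjusted (28.6% together, against 18.4% of all genes, median -0.01). All 21 citrate cycle genes listed were measured, 0 passed, and 4 were lower and 0 higher unadjusted (19.0%, against 8.56% of all genes lower and 18.4% in all, median -0.02). NDUFAB1 and NDUFA4L2, chain genes outside the symbol rule, had log2 fold changes of -0.06 and -0.17, and neither passed.

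In 2 lists, 1 gene each passed. Of 27 measured genes for mobile carriers and other routes of electron entry, ETFDH rose. It encodes the flavoprotein that hands electrons from fatty acid and amino acid oxidation to ubiquinone. Its normalized counts were 936, 969 and 974 in siNT and 1201, 1260 and 1152 in siMNX1, so the groups were well apart, with a log2 fold change of 0.33 (SE 0.06, limma adjusted p = 0.0216). Of 22 measured regulators of mitochondrial biogenesis, GABPB2, a partner of the ETS factor GABPA, rose from 186, 230 and 188 to 285, 323 and 342 normalized counts, a log2 fold change of 0.66 (SE 0.12) with an adjusted p of 0.0204 by limma. The ETFDH call was lost when any library but siMNX1 replicate 3 was left out (adjusted p = 0.0509 to 0.0850) and with the replicate block (0.0732). The GABPB2 call was lost without replicate 1 or 3 of siNT (0.0720 and 0.102) and without replicate 3 of siMNX1 (0.0658). Without the variance trend both were lost (0.0826 and 0.0732).

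Promoters of nuclear chain genes are known for sites of NRF1, of ETS factors such as GABPA, and of YY1. Windows of 250 bases before to 50 after the gene start were taken from RefSeq (GRCh38.p14), which gave 78 windows for 65 of the 79 subunit genes, of 78 genes matched. Both strands were searched for exact letters. The NRF1 consensus was in 6 windows (7.69%), against 1.48% of all 35116 RefSeq windows and 2.44% of the windows of genes in the table. The ETS motif CCGGAAG was in 28.2%, against 10.3% and 16.2%, and the YY1 motif AAGATGG in 24.4%, against 5.84% and 6.79%. The SP1 letters GGGCGG were in 64.1% (45.0% and 64.4%), CCAAT in 33.3% (34.6% and 34.7%) and TATAAA in 7.69% (11.5% and 6.44%). No overlap between different motifs was removed. TAATTA, a core that many homeodomain factors bind, was in 0 of the 78 windows, against 4.84% and 2.42%, which says only that these letters are not in these windows.

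The windows of 4 members are shown because these genes had the highest (NDUFA3) and lowest (NDUFS6) log2 fold change of complex I and the lowest of complexes II (SDHD) and V (ATP5MD). Capitals mark NRF1, ETS and YY1 matches on either strand. The NDUFA3 window at chr19:54102605-54102904 (plus strand) held 1 NRF1 and 2 YY1 matches, and the SDHD window at chr11:112086623-112086922 (plus strand) 1 NRF1 and 1 ETS match. The ATP5MD window (ATP5MK in RefSeq) at chr10:103396426-103396725 (minus strand) held 3 ETS matches, of which 2 overlap on opposite strands. NDUFS6 at chr5:1801157-1801456 (plus strand) held 0 matches.
NDUFA3: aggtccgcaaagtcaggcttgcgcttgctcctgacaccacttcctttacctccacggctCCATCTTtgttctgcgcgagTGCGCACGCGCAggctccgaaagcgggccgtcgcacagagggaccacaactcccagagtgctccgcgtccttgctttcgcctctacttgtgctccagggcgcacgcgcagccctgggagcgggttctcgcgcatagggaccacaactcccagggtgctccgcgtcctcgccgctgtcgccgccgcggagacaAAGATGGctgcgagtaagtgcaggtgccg
NDUFS6: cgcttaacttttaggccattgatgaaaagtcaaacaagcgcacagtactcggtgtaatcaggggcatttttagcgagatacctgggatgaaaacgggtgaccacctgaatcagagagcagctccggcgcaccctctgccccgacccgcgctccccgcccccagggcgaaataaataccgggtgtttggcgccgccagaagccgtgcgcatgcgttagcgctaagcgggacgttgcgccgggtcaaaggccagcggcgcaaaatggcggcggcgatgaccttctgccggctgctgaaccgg
SDHD: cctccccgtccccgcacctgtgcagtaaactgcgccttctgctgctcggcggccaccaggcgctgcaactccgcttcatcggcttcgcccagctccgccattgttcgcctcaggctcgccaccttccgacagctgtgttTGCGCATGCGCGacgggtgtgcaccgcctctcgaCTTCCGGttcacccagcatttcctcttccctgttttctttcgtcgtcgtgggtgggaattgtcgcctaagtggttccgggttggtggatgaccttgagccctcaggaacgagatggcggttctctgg
ATP5MD: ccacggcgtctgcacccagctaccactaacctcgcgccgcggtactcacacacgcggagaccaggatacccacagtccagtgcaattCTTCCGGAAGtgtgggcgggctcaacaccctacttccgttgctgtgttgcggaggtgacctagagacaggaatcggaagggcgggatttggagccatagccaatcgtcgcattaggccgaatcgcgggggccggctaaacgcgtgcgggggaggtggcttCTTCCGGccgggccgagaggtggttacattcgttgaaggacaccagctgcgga
Log2 fold changes had a median of -0.03 in the 6 genes with an NRF1 match and -0.06 in the 59 without. For ETS the medians were -0.05 (21 genes) and -0.06 (44 genes), and for YY1 -0.05 (18 genes) and -0.06 (47 genes). A match of letters is not a bound site.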

How the data were processed

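Per the labels' protocols, RNeasy-purified total RNA (5 ng a library) went into the Ovation Solo kit, with ribosomal RNA depleted by AnyDeplete. Under molecule, the labels give polyA RNA. The values deposited by the authors are normalized counts, a signal with decimals for each gene. Per the submitters' processing notes, DESeq, DESeq2 1.26.0, R 3.6.3, RSEM 1.3.1 and STAR 2.7.6a were used with GRCh38, in no stated role or order. Strand use, annotation release and any low-value filter: not given in the sources used here. Values are not whole reads, so no count model was fitted and the depth is unknown. Deposited totals, 18406479 to 18704645, follow the normalization.

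All 6 libraries entered a limma 3.58.1 fit (R 4.3.3) of group on log2(value + 1) with a variance trend. Benjamini-Hochberg adjustment ran over 16792 genes, with a threshold of 0.05. Every fold change is of log2(value + 1), so that of a low gene is understated. Requiring a mean of 5 removed 0 genes (lowest mean 6.57). Per-length levels use the median-length basic protein-coding transcript of GENCODE 29. It can be shorter or longer than the transcripts expressed here, so ranks per length are uncertain. Lengths taken were 353 bases for NDUFS8, 460 for SDHC, 1878 for ATP5F1E and 2130 for NDUFA4. Shares used exact permutation tests. Promoter motifs are descriptions; a looser NRF1 and a longer YY1 pattern, searched first, are not reported. The procedure was tested on simulated data. Python 3.11.15, numpy 2.4.6, scipy 1.17.1, pandas 2.3.3, Biopython 1.88 and matplotlib 3.10.9 were used.

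Named genes are every member with an unadjusted p under 0.05, and in each complex the 3 most abundant per length and the lowest and highest fold change. To these were added isoform family members, core catalytic subunits, and list genes past the threshold. MNX1, SST, PERCC1, NDUFS3, NDUFS7, NDUFAB1, NDUFA4L2, ATP5IF1 and ATP5PF, and genes named for lacking overlap, are outside that rule and were chosen with their values known. Values of 1 member are not reported here. The members and lists were chosen with earlier results of these data known. Alternatives were other pseudocounts, filters, scalings (TMM factors, equal totals, equal totals of genes not on the mitochondrial genome), variance models, a length and GC correction, a replicate block and each library left out.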

Additional observations from a re-analysis of the deposited data

How the results depend on the processing

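Members called stayed at 0 under all 17 alternatives, the smallest adjusted p of a named member being 0.0715. The alternative without a filter repeated the main fit, since every gene already passed that filter, so it is no separate check. Unadjusted lower p-values numbered 6, with 3 to 10 when 1 library was left out. Of all genes, 14.7% to 17.8% had an unadjusted p under 0.05 in either direction with 1 library left out. Without the variance trend there were 4 lower and 1 higher, where 16.4% of all genes had such a p in either direction. Calls over all genes went from 558 to 191 without the trend and to 198 to 436 when 1 library was left out. Replicate numbers did not pair libraries (correlations of same-numbered deviations -0.014, -0.009 and -0.038, with 0 of 6 libraries closest to their own number). With the replicate block 237 genes and 0 members were called, and 5 members had an unadjusted p under 0.05, against 16.5% of all genes. The median for complex II ran from -0.0494 to -0.0092 with 1 library left out, for complex III from -0.0862 to -0.0397, and for complex IV from -0.0489 to 0.0024. COX7A2 changed sign with equal totals (-0.0031), equal totals of genes not on the mitochondrial genome (-0.0072) and the length and GC correction (-0.0105), and COX8A with the last (0.0249). Signs were followed for the 40 members named by rule. With 1 library left out, 11 of these 40 changed sign in some fit: ATP5MC2 (-0.0173 to 0.0611), ATP5MF (-0.0708 to 0.0179), COX6A1 (-0.0355 to 0.0825), COX7A2 (-0.0177 to 0.0311), COX7B (-0.0555 to 0.0531), COX8A (-0.0212 to 0.0240), NDUFA3 (-0.0143 to 0.202), NDUFS1 (-0.0008 to 0.0716), SDHA (-0.0114 to 0.0549), SDHC (-0.0232 to 0.0503) and UQCRQ (-0.0178 to 0.0805). The ATP5MC1 share difference ran from -1.03 to 0.058 points and that of COX7A2 from -1.645 to -0.807. The cause of these changes was not tested. The unknown depth allows no counting interval.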
